A study of Sus scrofa with 23 samples.

Results

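This comparison set 7 pigs of a low residual feed intake line against 8 pigs of a high residual feed intake line that were given the same amount of feed, 15 of the 23 pigs of the study. Residual feed intake (RFI) is the feed an animal eats beyond what its growth and maintenance account for. The low-RFI pigs (RFIneg) ate ad libitum, and the restricted high-RFI pigs (RFIplR) were held at the feeding level of the low line. Another 8 high-RFI pigs (RFIpl) ate ad libitum and serve here as a reference for the high line without restriction. All pigs weighed 115 kg, and RNA came from the Longissimus, a long back muscle. Each pig was measured on 1 single-colour array. The groups were taken from the sample titles, and the labels used here do not give sex, litter or age. Markers of fast muscle fibres were bright in every pig, with a mean level over 13 genes between 8.85 and 9.30 on the log2 scale defined below.

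Selection on residual feed intake changes how much feed an animal eats at a given growth, so lines that eat freely differ in intake as well as in genotype. Restricting the high line to the intake of the low line removes that difference in intake. Skeletal muscle takes up much of the energy and protein of the feed, through protein synthesis on ribosomes, protein breakdown by the proteasome and autophagy, and the oxidation of fuel in mitochondria.

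The level of a probe is its log2 signal minus the 75th percentile of its array, so that 0 stands for a bright probe, and a difference is low-RFI minus restricted high-RFI in these log2 units with the standard error (SE) of limma, a linear model fitted to every probe. On the 15 arrays 41.6% to 79.0% of the probes were well above background, with medians of 69.3% in low-RFI and 67.3% in restricted pigs. Precision is set by how few pigs were measured. The arrays lay on 6 slides, each with pigs of both groups, and were scanned on 2 days. The 3 arrays of slide 3 in this comparison had the lowest shares, 41.6% to 58.8%. Slide accounted for 84.7% of the first principal component of the 15 arrays and group for 0.74%. Of the second, slide and group each accounted for 36.3%. Within a group, arrays correlated at 0.976 to 0.988 (median for each array). In muscle RNA as a whole, fewer cells of a type and less RNA per cell cannot be told apart.

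The probes that carry the leading differences are 60-base oligonucleotides, and those below show what was read out for 4 of the genes. The RPL6 probes overlap, and capitals mark bases that a probe shares with another called RPL6 probe in a run of at least 20 bases. The probes of the other genes share no such run with another probe of their gene and are given in lower case.
CD40, A_72_P544217: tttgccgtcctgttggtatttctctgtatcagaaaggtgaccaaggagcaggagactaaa
OAZ3, A_72_P437459: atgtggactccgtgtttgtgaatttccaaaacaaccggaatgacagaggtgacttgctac
OAZ3, A_72_P619999: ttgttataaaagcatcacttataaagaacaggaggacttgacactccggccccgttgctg
RSF1, A_72_P345888: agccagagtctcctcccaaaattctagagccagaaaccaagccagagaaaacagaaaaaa
RSF1, A_72_P761476: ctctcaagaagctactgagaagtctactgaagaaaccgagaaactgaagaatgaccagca
RPL6, A_72_P719128: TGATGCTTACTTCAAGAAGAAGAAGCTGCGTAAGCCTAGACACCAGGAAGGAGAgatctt
RPL6, A_72_P722398: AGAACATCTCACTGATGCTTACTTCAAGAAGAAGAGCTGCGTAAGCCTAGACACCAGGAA
RPL6, A_72_P730073: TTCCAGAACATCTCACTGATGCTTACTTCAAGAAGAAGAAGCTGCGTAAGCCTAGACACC
RPL6, A_72_P761955: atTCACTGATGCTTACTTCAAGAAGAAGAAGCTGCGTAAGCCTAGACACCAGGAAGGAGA

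At equal feeding low-RFI and restricted high-RFI pigs differed in a short list of transcripts. Only the high-RFI pigs were restricted, so line and feeding regime cannot be told apart in this comparison. Low-RFI muscle had less CD40, OAZ3, DLD, GPX3, UCHL1, SNX21, MICU3, EZR and COQ5 RNA, and more C4H8orf37, RSF1, RPL6, ASH1L and CCDC18 RNA. Against high-RFI pigs fed ad libitum, ASH1L and CCDC18 differed by only 0.06 and 0.155 (limma adjusted p = 0.902 and 0.658). KLF3 and FMN1 were each higher on 1 probe and not on their others, and a probe described as SREC-3 was higher. Of 27799 probes tested, 45 (0.162%) passed an adjusted p of 0.05 in limma with Benjamini-Hochberg adjustment. In low-RFI pigs 20 of these were higher (0.0719%) and 25 lower (0.0899%). The differences of the called probes were 0.42 or more in size with a median of 0.99, against a median size of 0.12 over all probes. At an unadjusted p of 0.05, 1549 probes (5.57%) were higher and 1281 (4.61%) lower. The groups did not overlap in 18 of the 45 called probes, against 63 probes (0.227%) in all. The number called depended on single pigs and on the spot intensity and background correction used. It ran from 18 without low-RFI replicate 1 to 68 without restricted replicate 1, and was 15 without the arrays of slide 3. Normexp is a background correction that models signal and background from the spots. It started from mean spot intensity, not from the background-subtracted and detrended signal of the main setting. After normexp limma called 0 probes, with 1036 at an unadjusted p under 0.05, and 40 of the 45 kept their direction. The part of the background correction alone was not tested. Of the calls 44.4% were higher in low-RFI pigs, against 34.8% of 23 with the arrays centred on their median and 23.8% of 21 in the authors' deposited values.

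**Figure D1:**
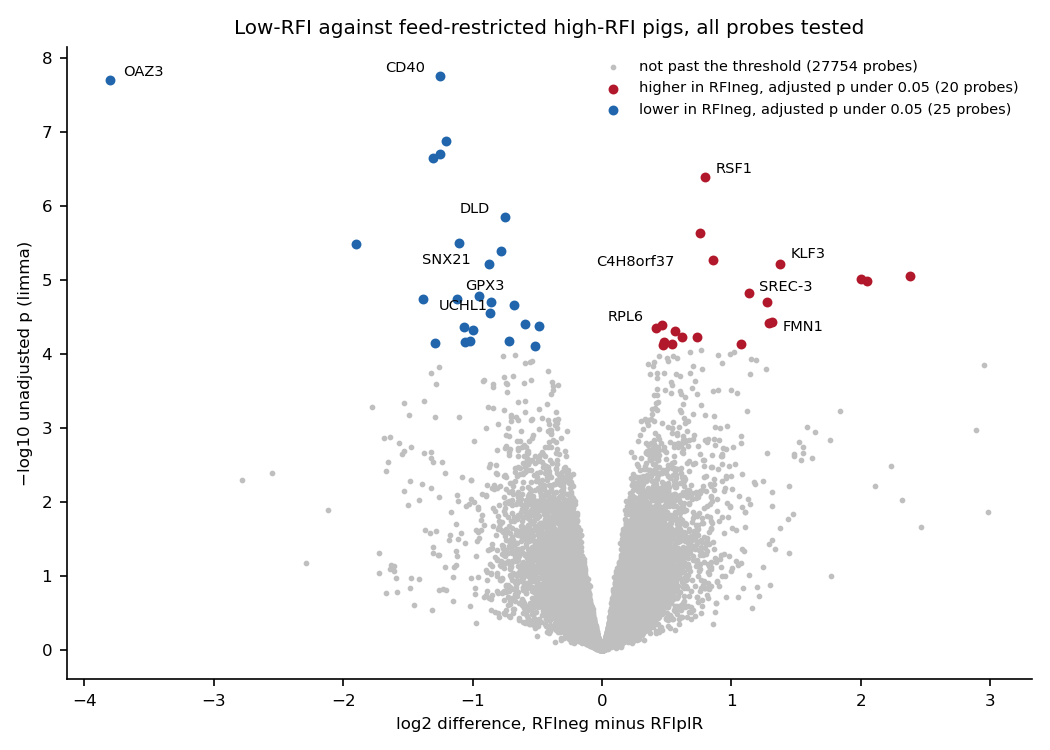
Log2 difference of low-RFI (RFIneg) minus restricted high-RFI (RFIplR) pigs on the horizontal axis and −log10 of the unadjusted limma p on the vertical axis, 1 point for each of 27799 probes. The 20 red and 25 blue points passed an adjusted p of 0.05, with the leading probes of CD40 and OAZ3 highest. The OAZ3 point farthest to the left rests on low-RFI spots that were not well above background, so its place on the horizontal axis is not a measured size.

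Of the called probes 22 had a gene symbol, 6 were named by their description only and 17 were given no gene name. By annotation, 22 of 10072 probes with a symbol were called (0.218%), as were 9 of 6793 that carry only a description (0.132%), 6 of 5262 with clone or library text only (0.114%) and 8 of 5672 without a description (0.141%). The called probes stood for 17 named genes, 8 higher and 9 lower in low-RFI pigs. All 17 differed in the same direction on each of the 6 slides, and 9 of the 17 kept an adjusted p under 0.05 with slide as a fixed block. The genes were chosen for their difference over these same arrays, so the agreement between slides is no separate support. With each of the 15 pigs left out in turn, 7 of the 17 were called every time, namely CD40, OAZ3, DLD, SNX21, KLF3, RSF1 and C4H8orf37. Calls of the other 10 were lost when single pigs were left out, as given with each gene. Another fit left out all arrays of slide 3, including that of freely fed high-RFI replicate 5. There 5 of the 17 kept their call, and KLF3 (limma adjusted p = 0.0814) and DLD (0.0597) were not among them.

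CD40 and OAZ3 were the genes lower in low-RFI pigs with the smallest p. CD40, a receptor through which T cells activate antigen-presenting cells, was measured by 3 probes, and all were lower. On the probe with the smallest p the low-RFI pigs ran from -3.22 through a median of -2.76 to -2.31. The restricted pigs ran from -2.23 through -1.54 to -1.07, so the groups did not overlap. The difference was -1.26 ± 0.15 (SE, n = 7 and 8, limma adjusted p = 0.000279), with -1.08 on scan day 1 and -1.45 on day 2. The other CD40 probes differed by -1.21 and -1.25 (limma adjusted p = 0.00125 and 0.00126). Freely fed high-RFI pigs were at -1.39 ± 0.18 (SD, n = 8) and restricted ones at -1.51 ± 0.37 (SD, n = 8). In 1 low-RFI pig the first probe did not clear the background.

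OAZ3 encodes an antizyme, a protein that blocks ornithine decarboxylase and with it polyamine synthesis, and is known mainly from the testis. The first of the OAZ3 probes printed above was well above background in 8 of 8 restricted and 8 of 8 freely fed high-RFI pigs and in 0 of 7 low-RFI pigs. Restricted pigs were at -1.74 ± 0.64 (SD, n = 8) and low-RFI pigs at a measured mean of -5.54 ± 1.45 (SD, n = 7). For a cautious size, each low-RFI pig was set at the lowest signal above background on its array, or at its own value where higher. Against the mean of these, -4.69, the restricted mean was 7.74-fold higher (limma adjusted p of the fit = 0.000279). This compares means and is not a limit for each pig. The probe entered the test through the high-RFI groups alone, since 6 arrays of a group above background were required. Low-RFI values ran from -6.63 through a median of -6.06 to -2.35. The highest came from replicate 7, whose array had the lowest share of probes above background, 41.6%, and it lay within the range of the restricted pigs, -2.49 to -0.99. On the second probe low-RFI pigs were at -2.93 ± 0.15 and restricted pigs at -2.25 ± 0.36 (SD, n = 7 and 8), or -0.68 ± 0.13 between them (SE, limma adjusted p = 0.0256). Of the 11 measured genes of polyamine metabolism, OAZ3 alone passed the threshold. ODC1, the decarboxylase itself, differed by -0.47 ± 0.14 (SE, limma adjusted p = 0.224).

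**Figure D2:**
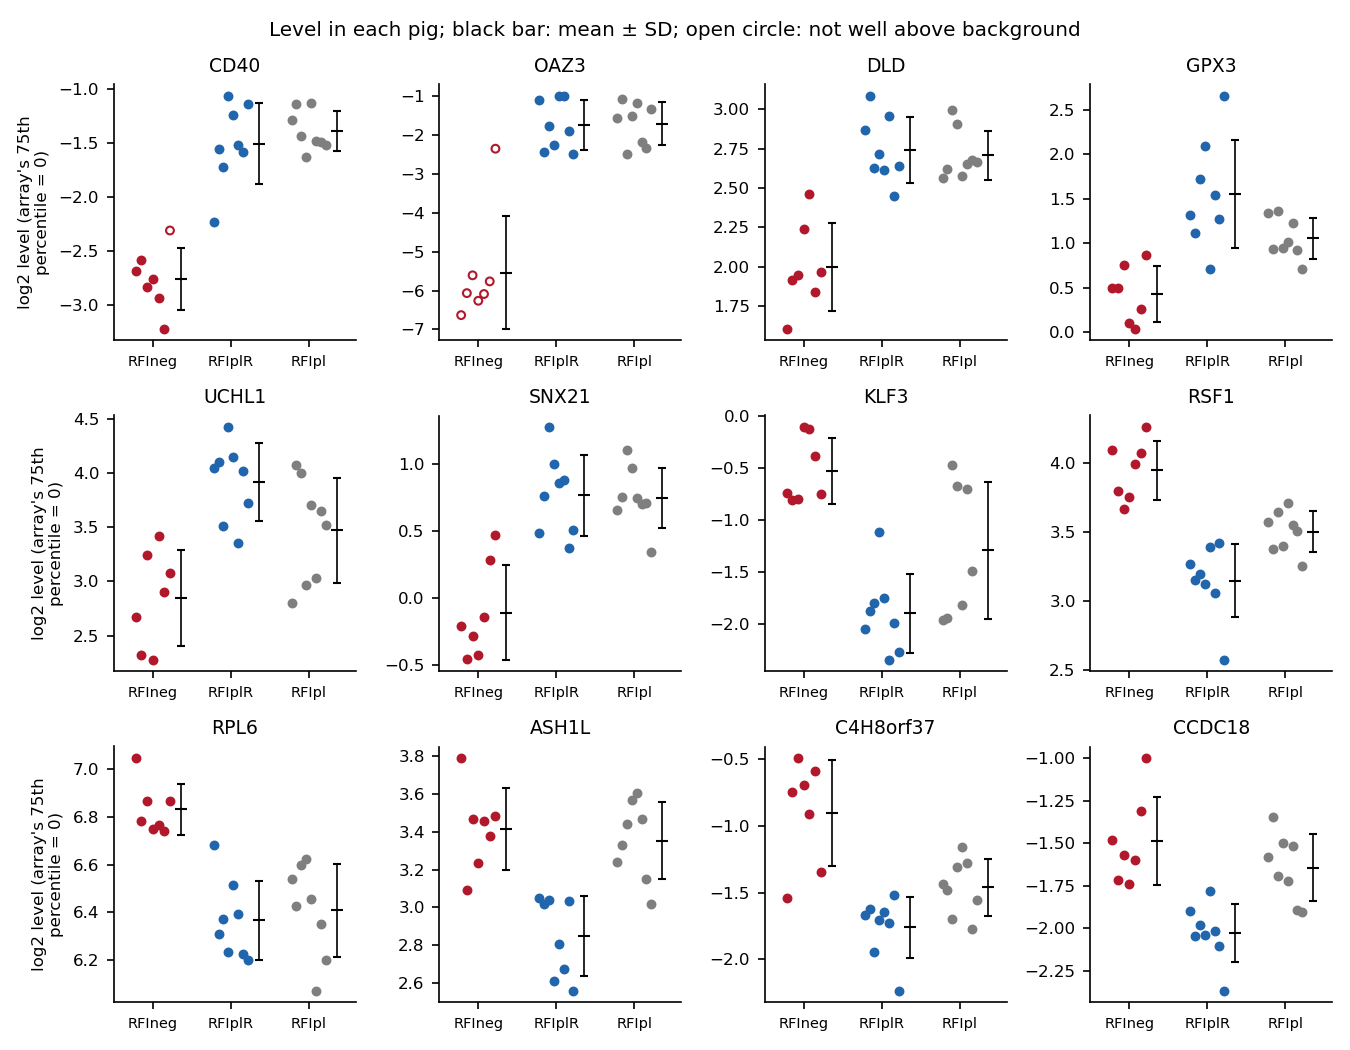
Log2 level (vertical axis, 0 is the 75th percentile of the array) in each pig for 12 genes on their probe of smallest p, in low-RFI (RFIneg, red, n = 7), restricted high-RFI (RFIplR, blue, n = 8) and freely fed high-RFI pigs (RFIpl, grey, n = 8, 7 for KLF3), with mean ± SD as black bars and open circles for spots not well above background. For CD40 the low-RFI pigs lie at -2.31 or lower and the restricted pigs at -2.23 or higher.

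The other genes that were lower in low-RFI pigs include enzymes of mitochondria and of redox balance. DLD is the dihydrolipoamide dehydrogenase subunit shared by the pyruvate and oxoglutarate dehydrogenase complexes. Its level on the leading probe was 1.61 to 2.46 in low-RFI pigs with a median of 1.95, and 2.45 to 3.08 in restricted pigs with a median of 2.68. The groups overlapped only at these ends, and the difference was -0.75 ± 0.12 (SE, limma adjusted p = 0.00558). A second DLD probe passed as well, at -0.49 ± 0.10 (limma adjusted p = 0.039). The other 7 of its 9 probes did not pass and ran from -0.39 to 0.03, with 8 of 9 below 0. COQ5, a methyltransferase of ubiquinone synthesis, differed by -0.52 ± 0.11 (SE, limma adjusted p = 0.0477) without overlap, from 1.14 to 1.55 in low-RFI and from 1.61 to 2.27 in restricted pigs. A probe without a gene name that shares 44 of its bases differed by -0.15 (limma adjusted p = 0.678). The COQ5 call was lost when any of 13 pigs was left out (limma adjusted p of up to 0.112 without low-RFI replicate 2). It was also lost with slide as a block (limma adjusted p = 0.0778). MICU3, named by its description only and a member of the family that regulates mitochondrial calcium uptake, had a median of 0.46 and a highest value of 1.04 in low-RFI pigs and a median of 1.39 in restricted pigs, whose lowest lay just under that value. It differed by -0.86 ± 0.17 (SE, limma adjusted p = 0.0307), and 9 left-out pigs ended its call (up to 0.0993 without low-RFI replicate 1).

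GPX3, the glutathione peroxidase secreted into plasma, was lower on each of its 3 probes. On the leading probe low-RFI pigs ran from 0.04 through 0.50 to 0.87 and restricted pigs from 0.71 through 1.43 to 2.65, so that the ranges overlapped. The differences were -1.12 ± 0.21 (SE, limma adjusted p = 0.0241), -0.99 ± 0.20 (0.0397) and -0.66 ± 0.18 (0.182). A further probe, labelled GPX3 on the array but with accessions of more than 1 gene, shares 50 bases with the leading one and was at -1.06 (limma adjusted p = 0.0474). With slide as a block the adjusted p of the leading probe was 0.071, and 5 left-out pigs ended its call (up to 0.0617 without low-RFI replicate 5). UCHL1, a deubiquitinating enzyme abundant in neurons, ran from 2.28 through 2.91 to 3.42 in low-RFI pigs and from 3.36 through 4.03 to 4.42 in restricted pigs. Its probes differed by -1.07 ± 0.21 and -1.02 ± 0.21 (SE, limma adjusted p = 0.039 and 0.0474). The difference of the first was -0.70 on scan day 1 and -1.52 on day 2. Its call was lost with slide as a block (limma adjusted p = 0.0778) and without any of 10 pigs (up to 0.11 without low-RFI replicate 1). Of the 6 measured nerve and Schwann cell markers, UCHL1 was the only one called. MBP, a myelin protein, was at 0.51 ± 0.24 (SE, limma adjusted p = 0.464). The part of nerve content in the UCHL1 difference was not tested.

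SNX21, a sorting nexin of endosomes, was called on a probe named by its description only, which matches 85% of the dog protein. Low-RFI pigs ran from -0.45 through -0.21 to 0.47 and restricted pigs from 0.37 through 0.81 to 1.28. They overlapped at these ends and differed by -0.88 ± 0.15 (SE, limma adjusted p = 0.0123). The other SNX21 probe differed by -0.22 ± 0.10 (limma adjusted p = 0.464). EZR, or ezrin, links the plasma membrane to actin, and its 3 probes differed by -0.76, -0.72 and -0.69. Only the probe at -0.72 passed (SE 0.15, limma adjusted p = 0.0474, n = 7 and 8). It shares 39 bases with the probe at -0.69, and both are named by their description from a 78% match. The probe at -0.76 is named by symbol (limma adjusted p = 0.0552). On the probe that passed, low-RFI pigs ran from 1.34 to 1.97 and restricted pigs from 1.84 to 2.77. The difference was -1.15 on scan day 1 and -0.24 on day 2, and the call was lost with slide as a block (limma adjusted p = 0.0859) and without any of 12 pigs (up to 0.115 without low-RFI replicate 1). In the order of the reference assembly CD40, PCIF1 and SNX21 lie close together on chromosome 17, with 4 coding genes between CD40 and PCIF1 and 7 between PCIF1 and SNX21. From 5 genes before to 5 after this stretch, a range chosen after the values were seen, 15 of 24 coding genes had a tested probe, and 4 of their 33 probes passed, 3 of CD40 and 1 of SNX21, against 0.162% of all probes. The called genes chose the region, so nothing is read from this count.

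Among the genes that were higher in low-RFI pigs, RSF1 had the smallest p. RSF1 is a histone-binding subunit of a chromatin-remodelling complex. Low-RFI pigs ran from 3.66 through 3.99 to 4.26 on its leading probe, above all restricted pigs, which ran from 2.57 through 3.17 to 3.42. The difference was 0.80 ± 0.11 (SE, n = 7 and 8, limma adjusted p = 0.00191), with 0.99 on scan day 1 and 0.59 on day 2. The second probe printed above differed by 0.76 ± 0.12 (limma adjusted p = 0.00802). The other pair of RSF1 probes was at 0.21 ± 0.08 and 0.24 ± 0.09 (SE, limma adjusted p = 0.348 and 0.349). ASH1L, a histone methyltransferase, was called on 1 of its 2 probes, both named by description, at 0.57 ± 0.11 (SE, limma adjusted p = 0.0397), and the other was at 0.21 ± 0.08 (0.382). The groups did not overlap on the first, from 3.09 to 3.79 in low-RFI and from 2.56 to 3.05 in restricted pigs. Its call was lost with slide as a block (limma adjusted p = 0.0712) and without any of 10 pigs (up to 0.11 without low-RFI replicate 1).

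KLF3, a zinc finger transcription factor that represses its targets, was higher on 1 of 4 probes. On that probe low-RFI pigs ran from -0.81 through -0.74 to -0.10 and restricted pigs from -2.35 through -1.93 to -1.11, without overlap, and lay 1.37 ± 0.23 apart (SE, limma adjusted p = 0.0123). The other KLF3 probes were at -0.22 ± 0.14, -0.05 ± 0.21 and -0.01 ± 0.13 (SE, limma adjusted p = 0.616, 0.964 and 0.986). The first of these was at 3.31 in low-RFI and 3.53 in restricted pigs. A single spot was missing among the freely fed pigs on the leading probe, where n is 7. FMN1, a formin that builds actin filaments, likewise differed on 1 of 2 probes, both named by description, at 1.31 ± 0.26 (limma adjusted p = 0.0387) against -0.14 ± 0.18 (0.851). The first was dim, above background in 6 of 7 low-RFI, 5 of 8 restricted and 5 of 8 freely fed pigs. It therefore entered the test through the low-RFI group alone, where it is high. Its difference turned to -0.28 with normexp background correction, and 10 left-out pigs ended its call (up to 0.105 without low-RFI replicate 1).

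RPL6, a protein of the large ribosomal subunit, was higher on all 13 of its probes, and 5 passed the threshold. On the leading probe low-RFI pigs ran from 6.74 through 6.78 to 7.05 and restricted pigs from 6.20 through 6.34 to 6.68, without overlap. The difference was 0.46 ± 0.09 (SE, limma adjusted p = 0.039). The 5 called probes and the 4 that share at least 20 bases with one of them differed by 0.40 to 0.62, and the other 4 by 0.16 to 0.24. Since the called probes define the first set, this split is a description only. Leaving out any of 12 pigs ended the call of the leading probe (up to 0.11 without low-RFI replicate 1), as did slide as a block (limma adjusted p = 0.0694).

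**Figure D3:**
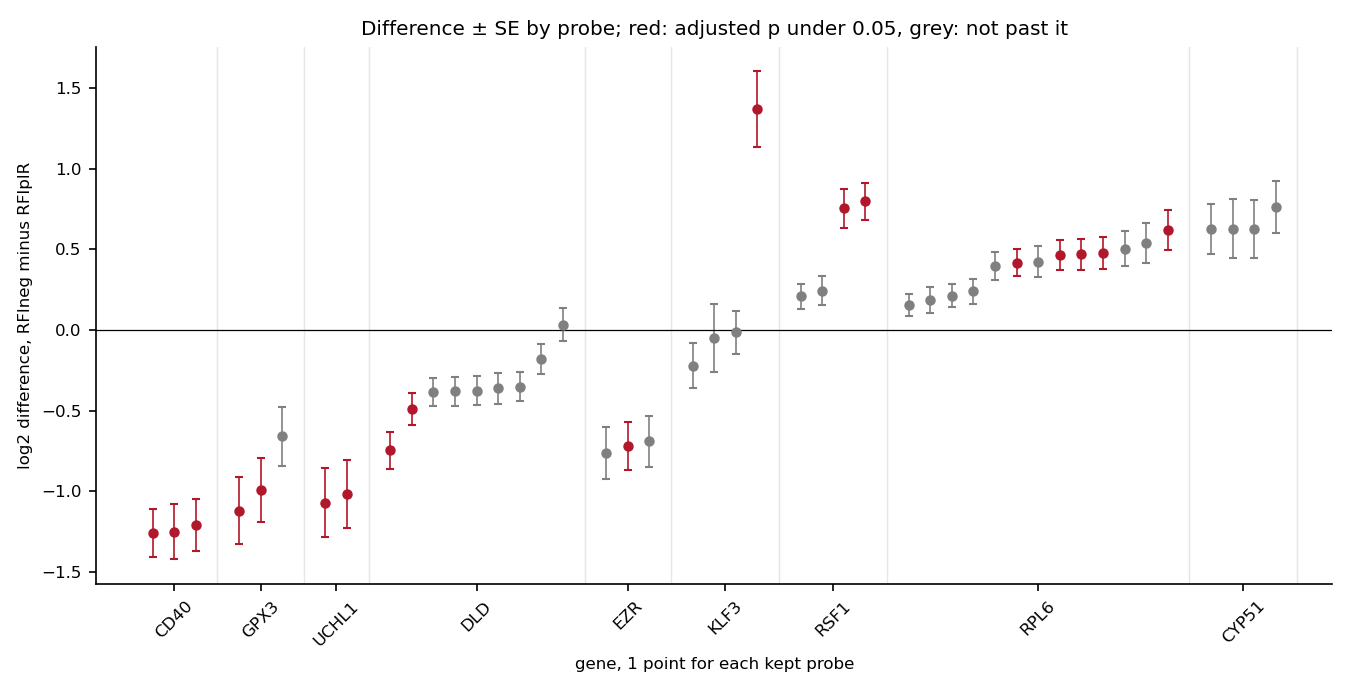
Log2 difference of low-RFI minus restricted high-RFI pigs (vertical axis) with its SE for each tested probe of 9 genes (horizontal axis), red where the adjusted p was under 0.05 and grey elsewhere. The 3 CD40 probes lie together between -1.26 and -1.21, whereas 1 KLF3 probe at 1.37 stands apart from the other 3 and the 13 RPL6 probes run from 0.16 to 0.62.

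C4H8orf37, an open reading frame named after its human counterpart, differed by 0.86 ± 0.15 (SE, limma adjusted p = 0.0123), from -1.54 through -0.74 to -0.49 in low-RFI and from -2.24 through -1.69 to -1.52 in restricted pigs. Its second probe was at 0.53 ± 0.23 (limma adjusted p = 0.438). CCDC18, a coiled-coil protein, was higher on its 3 probes, at 0.54 ± 0.11 (SE, limma adjusted p = 0.0474), 0.51 ± 0.11 (0.0571) and 0.38 ± 0.11 (0.204). The groups did not overlap on the first, with low-RFI pigs at -1.74 or higher and restricted pigs at -1.78 or lower, and the call was lost with slide as a block (limma adjusted p = 0.0917) and without any of 12 pigs (up to 0.111 without restricted replicate 8). A probe described as SREC-3 from a 3% match to a human protein differed by 1.13 ± 0.21 (limma adjusted p = 0.0236), and by -0.20 with normexp background correction. Its call was lost with slide as a block (limma adjusted p = 0.0629) and without low-RFI replicate 1, 2, 5 or 6 (0.0656, 0.0557, 0.0588 and 0.0563).

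Of the 17 called probes that were given no gene name, 7 were higher and 10 lower in low-RFI pigs. They include the probe labelled GPX3 on the array and others that carry a description. The 4 given below were above background in only some pigs, so the sizes of their differences rest in part on signals near background. Probe A_72_P284304 was above background in 6 of 7 low-RFI, 3 of 8 restricted and 3 of 8 freely fed high-RFI pigs and differed by 2.38 ± 0.42 (SE, limma adjusted p = 0.0165). Since 6 arrays of a group were required, it entered the test through the low-RFI group alone, where it is high. Probe A_72_P423064 was above background in 6 of 7 low-RFI, 2 of 8 restricted and 6 of 8 freely fed high-RFI pigs. It differed by 2.04 ± 0.36 (limma adjusted p = 0.017) without overlap, and by -0.19 with normexp background correction. The lowest low-RFI value, -4.64 in replicate 7, was not above background. Low-RFI minus freely fed pigs was 0.69 (limma adjusted p = 0.502), and restricted minus freely fed pigs was -1.36 ± 0.35 (0.139). In the other direction A_72_P008606 was above background in 1 low-RFI and 6 restricted pigs and differed by -1.90 ± 0.31 (limma adjusted p = 0.00906). A_72_P293129, above background in 2 and 7 pigs, differed by -1.38 ± 0.26 (limma adjusted p = 0.0241), with its call lost without any of 6 pigs (up to 0.0592 without low-RFI replicate 2) and with slide as a block (0.0572). Both of these lower probes entered the test through the high-RFI groups alone, where they are high.

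The following 7 genes were among those of next smallest p and did not pass the threshold. CYP51, a demethylase of cholesterol synthesis, was at 0.76 ± 0.16 (SE, limma adjusted p = 0.0533), and its 4 probes ran from 0.63 to 0.76. SLC7A2, a transporter of cationic amino acids, was at 0.90 ± 0.19 (limma adjusted p = 0.0552). PCIF1, which methylates the mRNA cap, was at 0.68 ± 0.14 on a probe named by its description from a 9% match and at 0.36 and 0.06 on the others (limma adjusted p = 0.0552, 0.464 and 0.955). RHOV was at 1.02 ± 0.22 on a dim probe (limma adjusted p = 0.0552) and at 0.51 ± 0.31 on another (0.598). ZFAND6 was at 0.44 ± 0.09, C17orf61 at -0.56 ± 0.12 and SDCCAG3 at -0.59 ± 0.13, each named by description (limma adjusted p = 0.0552, 0.0571 and 0.0571). The ZFAND6 description rests on a 54% match, and a brighter ZFAND6 probe named by symbol was at 0.135 ± 0.10 (limma adjusted p = 0.695). Each of these 7 passed when at least 1 particular pig was left out, for instance PCIF1 without restricted replicate 1 (0.016) and CYP51 without the same pig (0.0239).

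Whether the line difference at equal feeding differed from that at free feeding is tested by the contrast of restricted against freely fed high-RFI pigs, which shares the restricted pigs with the main comparison. Of the 45 called probes 0 passed an adjusted p of 0.05 in that limma contrast, and the smallest was 0.102, for ASH1L. At an unadjusted p of 0.05 there were 13 of 45, and 9.76% of all probes. Nothing is read from the 13, because the 45 were chosen on values of the same restricted pigs. Of all probes 1 passed after adjustment (0.0036%). For CD40 the low line differed by -1.37 from freely fed and by -1.26 from restricted high-RFI pigs, and restriction went with a change of -0.12 ± 0.14 (SE). For OAZ3 the restricted minus freely fed difference was -0.04 ± 0.44, for DLD 0.04 ± 0.11, for SNX21 0.02 ± 0.14 and for RPL6 -0.04 ± 0.09. For these genes the restricted and freely fed means were within 1 SE of each other.

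Some other genes had larger differences at equal feeding than at free feeding. They were called on values of the same restricted pigs, so nothing is read from that order. ASH1L was 0.06 higher in low-RFI than in freely fed high-RFI pigs and 0.57 higher than in restricted pigs, with a restricted minus freely fed difference of -0.50 ± 0.11 (SE, limma adjusted p = 0.102). For CCDC18 these values were 0.15, 0.54 and -0.39 ± 0.11 (limma adjusted p = 0.178), for RSF1 0.44, 0.80 and -0.35 ± 0.11 (0.234), and for KLF3 0.77, 1.37 and -0.61 ± 0.23 (0.37). GPX3 was at -0.63, -1.12 and 0.50 ± 0.20 (limma adjusted p = 0.398) and UCHL1 at -0.62, -1.07 and 0.45 ± 0.21 (0.479). PCIF1 went the other way, with 0.996 against freely fed and 0.68 against restricted pigs and 0.32 ± 0.14 between them (limma adjusted p = 0.446). None of these changes with restriction passed the threshold in limma.

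Groups of genes with a shared role were described over 35 lists, each gene by its brightest probe. Over 4357 named genes the median difference was 0.01, and at an unadjusted p of 0.05 there were 5.21% higher and 5.12% lower. Of 534 genes in the lists, 5 passed the threshold on their brightest probe, GPX3, OAZ3, CD40, RSF1 and UCHL1, against 7 of all 4357 (0.161%), and the lists were chosen with results of these data known. After normexp the median over all probes moved from 0.02 to -0.14 and 20 of the 35 list medians changed sign, and brackets give values after normexp where the sign changed or the median moved far.

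Ribosomal proteins were higher in low-RFI pigs, 38 of 39 measured genes. Of these 15 had an unadjusted p under 0.05, 0 of them lower, and 0 passed the adjusted threshold on their brightest probe. The median was 0.14 and kept its sign under all 31 alternatives. It ran from 0.07 to 0.16 outside the normexp settings and was 0.72 after normexp, which also raised the medians of proteasome and glycolysis genes, to 0.53 and 0.65. The mean level per pig overlapped between the groups, from 7.825 to 8.05 in low-RFI and from 7.64 to 7.91 in restricted pigs. RPLP0 was at 0.23 ± 0.08 (SE, limma adjusted p = 0.288) and RPL23 at 0.23 ± 0.08 (0.322). The median was 0.21 against freely fed high-RFI pigs and 0.07 between the high-RFI groups. Of 14 translation factors 7 were higher, with a median of -0.01 whose sign turned under 9 of 31 alternatives (0.43 after normexp), EEF1A1 at 0.50 ± 0.18 (limma adjusted p = 0.322) and EIF3E at 0.24 ± 0.11 (0.447). In insulin, IGF and mTOR signalling the median over 19 genes was -0.07 (0.13 after normexp), with IGF2, a growth factor of muscle, at 0.54 ± 0.14 (limma adjusted p = 0.152) and IGFBP5 at -0.39 ± 0.15 (0.381).

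In the lists of protein breakdown no gene passed the threshold in limma. Of 22 proteasome subunits 16 were lower and 3 of them had an unadjusted p under 0.05, with a median of -0.07 (0.53 after normexp). PSMB3 was at -0.26 ± 0.10 (SE, limma adjusted p = 0.367) and PSMA4 at -0.40 ± 0.17 (0.42). Of 20 genes of atrophy, FOXO signalling and autophagy 12 were higher, with a median of 0.01 that turned under 5 alternatives (0.32 after normexp), TRAF6 at 0.92 ± 0.30 (limma adjusted p = 0.275) and FOXO1 at -0.43 ± 0.18 (0.41). Genes that respond to glucocorticoids and fasting had 13 of 20 lower and a median of -0.08, of one sign under every alternative. FKBP5, induced by glucocorticoids, was at -1.47 ± 0.42 (limma adjusted p = 0.19) and PPARGC1A, a coactivator of mitochondrial genes, at -1.32 ± 0.38 (0.20).

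The medians of the mitochondrial lists were below 0 in low-RFI pigs under the main scaling and above 0 after normexp. Of 17 genes of the tricarboxylic acid cycle and pyruvate dehydrogenase 16 were lower, with a median of -0.16 (0.43 after normexp), DLD at -0.38 ± 0.09 on its brightest probe (limma adjusted p = 0.0786) and SDHA at -0.30 ± 0.13 (0.428). Complex I had 9 of 10 lower and a median of -0.14 (0.47 after normexp), with NDUFB9 at -0.41 ± 0.14 (limma adjusted p = 0.32) and NDUFS6 at -0.15 ± 0.09 (0.597). Complexes II to IV had 11 of 12 lower and a median of -0.12 (0.52), with CYCS at -0.31 ± 0.12 (0.349) and COX6C at -0.17 ± 0.08 (0.491). ATP synthase had 9 of 12 lower and a median of -0.08 (0.50), with ATP5D at -0.24 ± 0.10 (0.419) and ATPIF1 at -0.17 ± 0.09 (0.549). Fatty acid uptake and oxidation had 14 of 19 lower and a median of -0.09 (0.35), with DECR1 at -0.48 ± 0.14 (0.205) and HADH at -0.28 ± 0.10 (0.337). Unadjusted p under 0.05 were few in each of these lists, 1 or 2 genes, all lower.

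Glycolysis had 11 of 17 genes higher and a median of 0.06 (0.65 after normexp), with HK2, a hexokinase, at -0.49 ± 0.20 (SE, limma adjusted p = 0.40) and SLC16A1 at -0.19 ± 0.12 (0.606). Glycogen metabolism and AMPK had a median of -0.02 over 10 that turned under 5 alternatives (0.44 after normexp), with UGP2, which makes the glucose donor of glycogen, at -0.60 ± 0.14 (limma adjusted p = 0.0754) and PRKAG3 at 0.42 ± 0.30 (0.681). Fatty acid and triglyceride synthesis had 10 of 14 lower and a median of -0.11, with ME1, which supplies NADPH, at -0.65 ± 0.21 (0.262) and SREBF1 at 0.27 ± 0.16 (0.601). Creatine kinase and adenylate genes had a median of 0.01 over 13 that turned under 17 alternatives (0.41), with VDAC2 at -0.28 ± 0.11 (0.376) and VDAC3 at -0.23 ± 0.10 (0.414). Calcium release and uptake had a median of 0.00298 over 15 that turned under 13 alternatives (0.47), with PLN at -0.60 ± 0.26 (0.431) and PVALB at 0.55 ± 0.28 (0.516). Folate and 1-carbon genes had a median of -0.06 over 10 that turned under 2 alternatives, with MTHFD1 at -0.75 ± 0.24 (0.262) and AHCY at 0.20 ± 0.12 (0.586).

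Heat shock proteins and chaperones were lower in 14 of 14 measured genes, 4 with an unadjusted p under 0.05, and the median was -0.25 (0.30 after normexp). HSPH1 was at -1.32 ± 0.44 (SE, limma adjusted p = 0.298) and BAG3 at -0.75 ± 0.28 (0.341). Antioxidant enzymes had a median of -0.04 over 22 (0.50 after normexp), and besides GPX3 the smallest p was that of SOD2 at -0.42 ± 0.13 (limma adjusted p = 0.254). Polyamine genes had a median of -0.07 over 11 that turned under 3 alternatives (0.18). Immediate early factors had a median of -0.23 over 11 (0.07, and 0.000335 without the arrays of slide 3), at -0.79 on scan day 1 and 0.23 on day 2, with KLF2 at -0.59 ± 0.27 (0.456) and BTG1 at 0.32 ± 0.18 (0.549). Circadian clock genes had 4 of 5 lower and a median of -0.29, with NFIL3 at -1.50 ± 0.54 (0.334) and ARNTL at -0.38 ± 0.29 (0.708), and their median was 0.15 against freely fed pigs. Splicing factors had 12 of 17 lower and a median of -0.11 (0.35), with SRSF11 at 0.39 ± 0.11 (0.187) and TRA2B at -0.49 ± 0.18 (0.335). Chromatin and transcription regulators had 8 of 12 higher and a median of 0.09 (0.26 after normexp), with RSF1 called and GON4L at 0.58 ± 0.18 (0.245).

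**Figure D4:**
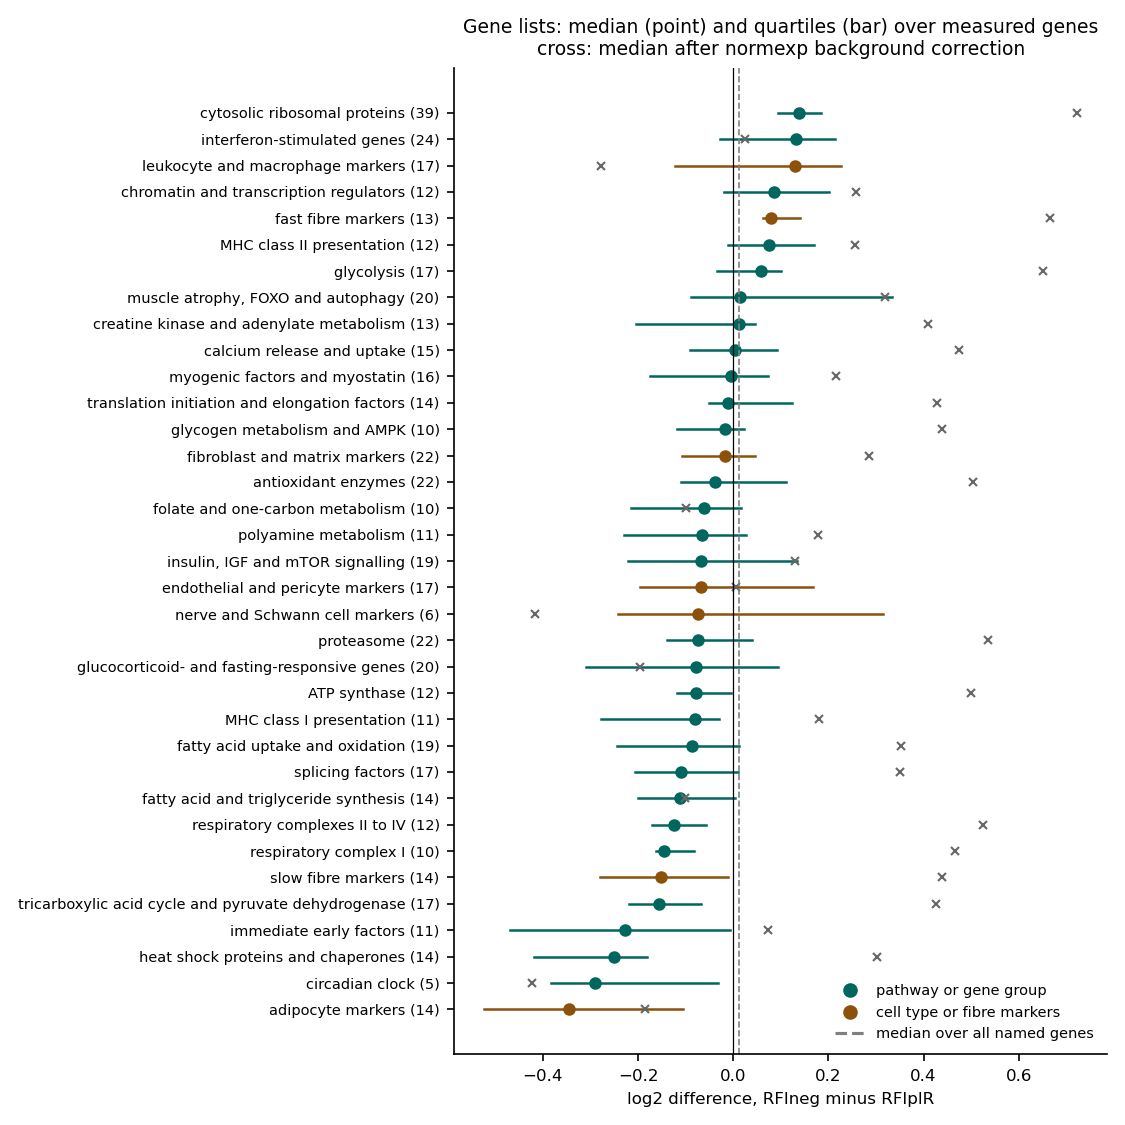
Median log2 difference of low-RFI minus restricted high-RFI pigs (horizontal axis) with quartiles for 35 gene lists, number of measured genes in brackets, crosses for the median after normexp background correction and a dashed line for the median over all named genes at 0.01. Ribosomal proteins lie highest at 0.14 and adipocyte markers lowest at -0.35, and the cross of the ribosomal proteins lies at 0.72.

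CD40 was the only called gene of the immune lists. MHC class I genes had 10 of 11 lower and a median of -0.08 (0.18 after normexp, and above 0 with array weights), with SLA-5 at -0.40 ± 0.19 (SE, limma adjusted p = 0.486) and SLA-3 at -0.41 ± 0.22 (0.53). MHC class II genes, a list that holds CD40, had 9 of 12 higher and a median of 0.07 (0.255 after normexp), with SLA-DMA at 0.20 ± 0.11 (0.534). Interferon-stimulated genes had 17 of 24 higher and a median of 0.13, with OASL at 0.81 ± 0.31 (0.366) and PML at 0.17 ± 0.09 (0.521). Leukocyte and macrophage markers had 12 of 17 higher and a median of 0.13 (-0.28 after normexp), with LYZ at 0.93 ± 0.54 (0.574) and CD3G at 0.42 ± 0.24 (0.577). Among the defining markers CD4, CD2 and CD79A were not above background. The mean level of the 17 leukocyte markers ran from -1.89 to -1.13 in low-RFI and from -2.11 to -0.97 in restricted pigs. These marker levels overlapped, and the part of leukocyte content in the CD40 difference was not tested.

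The mean levels of the adipocyte, fibroblast, endothelial and nerve markers overlapped between the groups. Adipocyte markers had 11 of 14 lower and a median of -0.35, with LIPE, a lipase of fat cells, at -0.69 ± 0.26 (SE, limma adjusted p = 0.359) and PNPLA2 at -0.42 ± 0.17 (0.40). Their mean level per pig ran from 0.21 to 1.56 in low-RFI and from 0.28 to 1.74 in restricted pigs, and the part of fat content in other differences was not tested. The adipocyte markers PLIN1, RETN and LGALS12 were not above background. Fibroblast and matrix markers had a median of -0.02 over 22 that turned under 10 alternatives (0.29 after normexp), with FN1 at -0.56 ± 0.17 (0.218) and COL1A2 at 0.55 ± 0.26 (0.472). Endothelial and pericyte markers had a median of -0.07 over 17 that turned under 2 alternatives (0.00654 after normexp), with VWF at -0.35 ± 0.14 (0.384) and CNN1 at 0.45 ± 0.22 (0.491). Nerve and Schwann cell markers had a median of -0.07 over 6 that turned without low-RFI replicate 5 (-0.42 after normexp). Fast fibre markers had 12 of 13 higher and a median of 0.08 (0.67 after normexp, -0.02 with quantile normalization), with PVALB at 0.55 ± 0.28 (0.516) and MYL1 at 0.16 ± 0.10 (0.61). Slow fibre markers had 11 of 14 lower and a median of -0.15 (0.44 after normexp), with MYOZ2 at -0.47 ± 0.23 (0.50) and ATP2A2 at -0.30 ± 0.17 (0.549). Myogenic factors had a median of -0.00398 over 16 that turned under 4 alternatives (0.22 after normexp), with ACVR2B at 0.30 ± 0.13 (0.448) and SMAD3 at -0.26 ± 0.14 (0.534). Erythroid markers were not described, as 2 were measured.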

How the data were processed

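Total RNA of 23 pig Longissimus samples was labelled with Cy3 and hybridised to Agilent arrays. Per the file headers, Feature Extraction 10.7.3.1 gave the deposited spot intensity values, background-subtracted and detrended within an array and not scaled between arrays. Mean and local background intensity, per the file headers, served only the normexp alternatives (offset 50). The deposited log2 table (26410 probes, column medians 0), made with R 2.10.0 per the submitters' processing notes, differs from the scanner files' log2 signal by 1 shift per array and was an alternative. How its probes were selected is not given in the sources used here.

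For the main setting the log2 signal of 43803 non-control spots was reduced by the array's 75th percentile, outlier spots were set to missing, and spots were averaged to 43603 probes. The 27799 probes detected (well above background) on 6 or more arrays of a group were fitted in limma 3.58.1 (R 4.3.3) with the 3 groups of all 23 arrays, and p-values were adjusted by Benjamini-Hochberg. The scripts were tested on simulated data.

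Named genes are those past adjusted p 0.05, then those of next smallest p up to 25 genes, the 2 of smallest p in each of 36 gene lists, and the 2 unnamed probes of largest difference in each direction. A gene and a marker that these rules name are not reported here. Some genes are named by the text of the Description, and symbols were updated through Sscrofa11.1 tables, which also gave gene order. Genes, lists and comparison were chosen with earlier results of these data known. The file headers gave slide and scan day. A fit without slide 3 and a normexp estimate from 153 negative control spots were added after the data were seen. Pigs are separate animals with 1 array each.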

Additional observations from a re-analysis of the deposited data

Results flagged for a closer look

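Among the named genes and unnamed probes, 56 groups of pigs were searched for 1 pig standing apart from the others, and 5 were found, where chance flags about 1 group in 20. For OAZ3, low-RFI replicate 7 was at -2.35 and the other 6 pigs of its group between -6.63 and -5.61. The spot was not well above background in any of the 7, so no difference is given without that pig, whose array had the lowest share of probes above background. For RSF1, restricted replicate 8 was at 2.57 against 3.06 to 3.42 in the others, and the difference without it was 0.72 (limma adjusted p = 0.00243). For SLC7A2 the same pig was at 1.69 against 2.39 to 2.82, and the difference without it was 0.79 (limma adjusted p = 0.115). For RPL6, low-RFI replicate 1 was at 7.05 against 6.74 to 6.87, and without it the difference was 0.43 (limma adjusted p = 0.11). For SREC-3, low-RFI replicate 3 was at -3.02 against -2.70 to -2.46, and without it the difference was 1.199 (limma adjusted p = 0.0251).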

How the results depend on the processing

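The 45 called probes became 25 with only the 15 arrays in the fit, 98 with array weights, 21 with the deposited values, 23 with median centring, 18 with no filter on dim probes, 25 with slide as a fixed block, 98 with slide as a random block, 76 with trend and robust variance, and 10 at an adjusted p of 0.01. After normexp background correction limma called 0, with 1036 probes at an unadjusted p under 0.05. Chosen after seeing the data, normexp on negative control spots gave 9 (1155 unadjusted) and leaving out the arrays of slide 3 gave 15. The count was 45 with outlier spots kept, 39 with quantile normalization, 35 with scan day as a block and 56 with a stricter filter. Leaving out each pig in turn gave 18 to 68. All 45 kept their direction under these settings, except that 38 and 39 of them were tested under the stricter filter and the deposited values, 40 kept it after normexp and 44 after normexp on negative control spots.

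Whether the replicate numbers pair the pigs could not be settled. Around their group means, same-numbered pigs correlated at -0.301 to 0.320, and 1 of 7 pairs passed 0.1. The pigs of each pair lay on different slides and slide was not removed, so these correlations cannot exclude pairing. With the replicate block 20 probes were called, 16 of them among the 45, and 6 of the 17 genes. Alternatives were run for the 17 called genes, the 7 next ones and the 4 unnamed probes. Of these, differences changed sign after normexp, to -0.28 for FMN1, -0.20 for SREC-3, -0.23 for RHOV and -0.19 for A_72_P423064, and the cause was not tested. List medians moved beyond the spread between pigs in 44 cases, all under the normexp settings. The depth limit lies in probes near background, whose differences are less certain in size. C4H8orf37, called in every fit that left out a pig, had an adjusted p of 0.0545 with the replicate block.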
